A study of Mus musculus with 6 samples.

Results

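The genes of the lysosome were followed in cultures of adipose-derived stem cells put through adipogenic differentiation with or without NJT-2. They were taken as the rows of the deposited expression table that the table's own KEGG column places in the lysosome pathway, without *Cd68*, which serves here as a macrophage marker. Genes that the table also places in protein processing of the endoplasmic reticulum or in extracellular matrix organization were to be left out, and there were 0 of these. This gave 63 genes of the 4864 analysed, of which 59 had a mean FPKM of at least 0.5 over the 6 libraries and were tested among 3705 such genes. Genes outside these 4864 rows were not analysed here. FPKM is the read count of a gene per length of the gene and per size of the library. The 63 genes comprised 9 proteases, 12 glycan hydrolases, 7 lipid hydrolases and their helpers, 3 nucleases or phosphatases, 12 membrane proteins, 5 subunits of the proton pump, and 15 genes of sorting and transport to the lysosome.

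The cells were wild-type mouse adipose-derived stem cells (ADSCs), precursor cells isolated, according to the methods, from the white adipose tissue of male C57BL/6J mice and labelled as coming from subcutaneous adipose tissue. Both groups received the same adipogenic medium with dexamethasone, insulin, 3-isobutyl-1-methylxanthine, indomethacin, and triiodothyronine. One group had vehicle (labelled Control) and the other NJT-2, which is saikosaponin A, tested here as a ligand of the nuclear receptor PPARγ. Poly(A) RNA of 3 libraries per group was sequenced. According to the methods, mature adipocytes were harvested on day 8 of differentiation. Most adipocyte markers were far lower in vehicle than with NJT-2, as given below, so the vehicle cultures are not taken here as mature adipocytes. The concentration of NJT-2 in the sequenced cultures is not stated in the sources used here, and the labels do not say whether the 3 libraries of a group came from separate cultures or animals, so the p-values measure the spread between these libraries, which may be technical.

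Lysosomes are acidic organelles in which hydrolases break down proteins, glycans, lipids, and nucleic acids delivered by endocytosis and autophagy. A proton pump, the V-ATPase, acidifies them, membrane proteins carry the products out, and receptors for mannose 6-phosphate bring newly made hydrolases in from the Golgi apparatus. Many lysosome genes have in their promoters a sequence termed the CLEAR element, an extended E-box that is bound by the transcription factor TFEB and its relatives. In adipocytes, lysosomal acid lipase acts on lipid droplets delivered by autophagy, and macrophages of adipose tissue are rich in lysosomes.

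The 8 bases TCACGTGA at the core of the CLEAR element were searched in windows from 250 bases before to 50 bases after each transcription start (RefSeq, build GRCm38.p6). The motif reads the same on both strands, and it contains the E-box CACGTG, which was searched as well. Of the 63 genes, 49 were matched to 64 windows, and 6 of these windows (9.38%) held the core, against 320 of all 32851 windows (0.974%). The shorter E-box was in 14 of the 64 windows (21.9%) against 7.15% of all windows. The 6 genes with the core were *Atp6v0d1*, *Cd164*, *Ctsa*, *Ctsd*, *Igf2r*, and *Mcoln1*. Their sites are shown because these members could be set apart by a feature that does not depend on the expression data, with the core in capitals, each read 5′ to 3′ on the strand of its gene. *Ctsa* and *Igf2r* each held the core at 2 places.
Atp6v0d1, chr8:105566050-105566079, minus strand, first core base 4 bases before the start: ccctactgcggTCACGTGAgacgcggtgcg
Cd164, chr10:41519401-41519430, plus strand, 88 bases before a start: cgccgggctgcTCACGTGAccggcgcgcgc
Ctsa, chr2:164833749-164833778, plus strand, 13 bases before a start: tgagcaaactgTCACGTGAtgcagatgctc
Ctsa, chr2:164833766-164833795, plus strand, 5 bases after the same start: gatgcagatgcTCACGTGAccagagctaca
Ctsd, chr7:142387908-142387937, minus strand, 99 bases before a start: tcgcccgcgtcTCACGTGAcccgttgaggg
Igf2r, chr17:12769737-12769766, minus strand, 49 bases before the start: gaacgaggacgTCACGTGAgcaggaggcgg
Igf2r, chr17:12769696-12769725, minus strand, 8 bases before the start: gccgactcaggTCACGTGAcgctccgggga
Mcoln1, chr8:3500462-3500491, plus strand, 46 bases before a start: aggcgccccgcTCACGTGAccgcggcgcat
The sites of *Atp6v0d1* and *Igf2r* lay upstream of the annotated transcripts (GENCODE M21), the core of *Cd164* spanned the first annotated base of the gene (41519414), and those of *Ctsa*, *Ctsd*, and *Mcoln1* lay in the untranslated part of an exon of a transcript that starts further upstream. Between vehicle and NJT-2, the log2 fold changes of the 6 genes ran from -0.59 to 1.04, with a median of 0.08. The 42 tested members with a window and without the core ran from -2.12 to 1.31, with a median of 0.03, and the difference was not tested. *Npc1*, the member with the largest log2 fold change, is among the 14 members without a window and is outside this comparison. A match to these letters is a description of the window and not a binding site.

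No lysosome gene was called differentially expressed with an adjusted p below 0.05 together with an absolute log2 fold change above 1 (edgeR's quasi-likelihood test, adjusted over 3705 genes). Over all genes tested, 21 were called higher with NJT-2 (0.567%) and 5 lower (0.135%), so that none among 59 genes is near the background. At an unadjusted p under 0.05, 2 lysosome genes were higher with NJT-2, *Npc1* and *Ctns*, and 3 were lower, *Tcirg1*, *Ctsz*, and *Cd63*. These 5 genes are 8.47% of the members, while 298 genes (8.04%) were higher and 360 (9.72%) lower among all genes at this limit, 17.8% in all. DESeq2 called *Npc1* higher (adjusted p = 0.00137) and *Tcirg1* lower (adjusted p = 0.0209), among 289 genes that it called in place of the 26 of edgeR. The calls on these genes thus depended on the test.

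As a group the lysosome genes lay close to their level in vehicle. Their median log2 fold change was 0.07, with 34 members above 0 and 25 below, against a median of 0.02 over all genes tested. An absolute log2 fold change over 1 was found in 9 of the 59 members (15.3%), 5 higher and 4 lower, and in 25.9% of all genes. The median size of the log2 fold change, whatever its sign, was 0.37 for the members and 0.60 for all genes. For 20 members the 95% interval of the log2 fold change lay wholly between -1 and 1, which bounds their difference to less than 2-fold at this replication. The members had a higher median level than all genes tested (15.0 against 6.85 FPKM) and a lower median standard error (0.37 against 0.45 on the log2 scale), and whether this sets the smaller fold changes was not tested.

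Counts were also compared library by library as CPM, the count of a gene scaled to the total count on the analysed genes, after TMM normalization. In 9 members every NJT-2 library lay above every vehicle library, and in 4 members every NJT-2 library lay below. Such separation was found in 15.1% of all genes upwards and in 14% downwards, so that the 13 separated members (22.0% of 59) are not more than the background. The 9 members were *Npc1*, *Ctns*, *Cd164*, *Man2b1*, *Neu1*, *Galc*, *Lgmn*, *Ap3s1*, and *M6pr*, and the 4 were *Sgsh*, *Gusb*, *Gm2a*, and *Tcirg1*. On the FPKM scale, a choice made after seeing the data, 12 members separated upwards and 3 downwards. The share of all genes that separated on this scale was not computed, so these counts have no background and are not read as a result. The share of counts that fell on the 63 genes was 4.47%, 4.35%, and 3.76% with vehicle and 4.60%, 3.78%, and 4.46% with NJT-2. These shares overlapped between the groups. RNA was measured in bulk, where a change in the share of a cell type and a change in RNA per cell cannot be told apart.

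**Figure D1:**
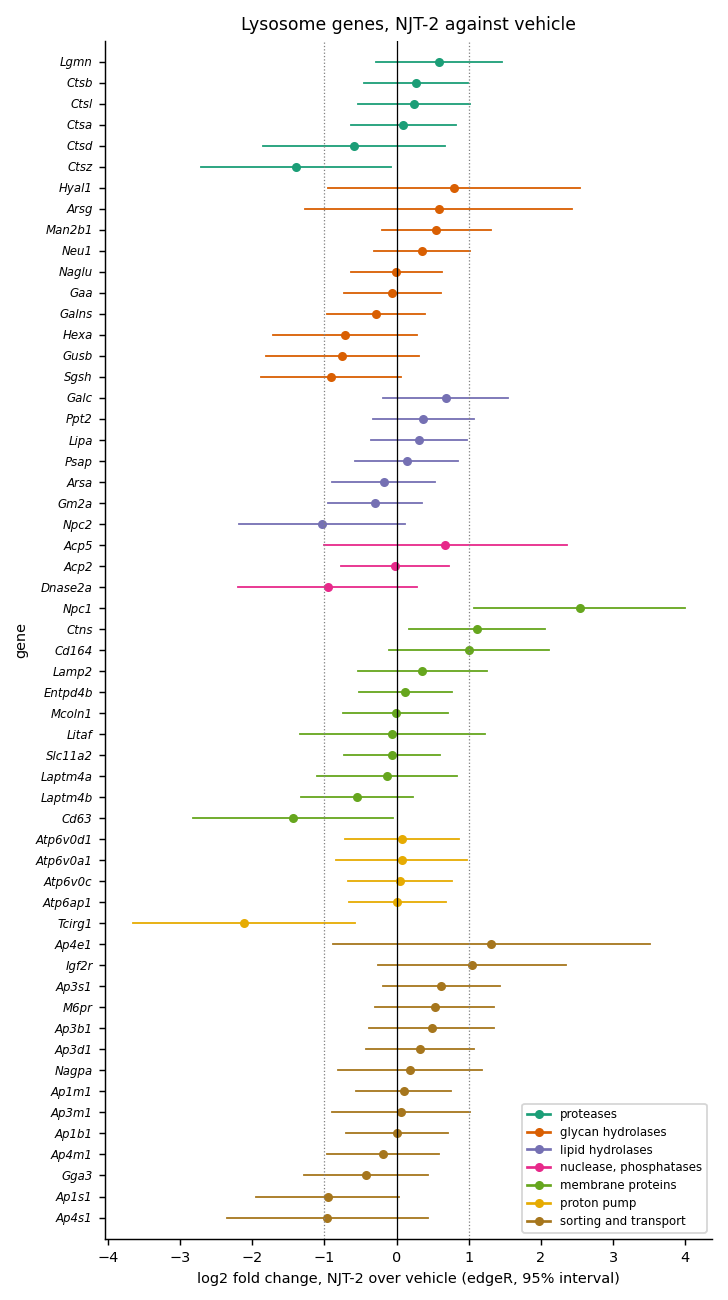
Log2 fold change of 56 of the 59 tested lysosome genes, NJT-2 over vehicle, with its 95% interval from edgeR, in classes by colour. The dotted lines stand at -1 and 1. The intervals of 5 genes do not reach 0, *Npc1* and *Ctns* above and *Tcirg1*, *Ctsz*, and *Cd63* below, and that of *Npc1* alone lies wholly beyond 1.

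Several proteases were among the most abundant lysosome transcripts. *Ctsd*, the aspartic protease cathepsin D, had the highest mean level of all members (809 FPKM), and *Ctsz*, *Ctsb*, and *Ctsl*, cysteine cathepsins, were the next proteases with 214, 202, and 155 FPKM. Together with *Psap*, *Laptm4a*, *Npc2*, and *Cd63* they are the 8 members with a mean of at least 100 FPKM, and these 8 hold 68.5% of the summed mean FPKM of all 63 members. By contrast, 14 members had a mean under 5 FPKM. The median log2 fold change of the 6 proteases tested was 0.17. Of these, 1 had an unadjusted p under 0.05 in edgeR (16.7% against 17.8% of all genes).

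*Ctsz* (chromosome 2, 174427493 to 174439039 on GRCm38), a carboxypeptidase, had 3056, 1110, and 677 normalised CPM with vehicle, listed here and later in replicate order, and 576, 714, and 551 with NJT-2. Vehicle replicate 1 was far above all other libraries, and vehicle replicate 3 lay within the range of the NJT-2 libraries. The log2 fold change was -1.40 ± 0.56 (SE from edgeR with 3 libraries per group; unadjusted p = 0.0401, adjusted p = 0.269). Without vehicle replicate 1 it was -0.58, and with a trend of counts on gene length taken out it was -0.53. An exon of *Nelfcd* overlaps *Ctsz* on the opposite strand, and the use of strand in counting is not stated in the sources used here.

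*Ctsd* turned on the same library. It had 14561 normalised CPM in vehicle replicate 1, 5509 and 3699 in the other vehicle libraries, and 6012, 4278, and 5538 with NJT-2. The groups overlapped, and the log2 fold change of -0.59 ± 0.54 (SE) became 0.15 without vehicle replicate 1. *Ctsb* had 3456, 3897, and 3224 normalised CPM in vehicle and 4636, 3743, and 4367 with NJT-2, a log2 fold change of 0.27 ± 0.31 (SE). *Ctsl* lay as close, at 0.24 ± 0.33 (SE), and so did *Ctsa*, the protective protein of β-galactosidase and neuraminidase, at 0.09 ± 0.31 (SE). These 3 genes overlapped between the groups, and their highest library was less than 2 times their lowest. *Lgmn*, the asparaginyl endopeptidase legumain, was the protease that separated the groups, with 229, 502, and 489 normalised CPM in vehicle and 608, 575, and 653 with NJT-2. Its log2 fold change was 0.59 ± 0.38 (SE, adjusted p = 0.390 in edgeR), and without vehicle replicate 1, the lowest library, it was 0.26.

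The other 3 proteases were too low for a test. *Ctse*, an aspartic protease of immune and gastric cells, had 0, 0, and 0 reads in vehicle and 22, 0, and 18 with NJT-2. *Ctsw*, a cathepsin of cytotoxic lymphocytes, had 43, 2, and 4 reads in vehicle and 5, 14, and 20 with NJT-2. *Napsa*, the aspartic protease napsin A, had 0, 12, and 0 reads against 33, 7, and 16. *Ap1m2*, an adaptor subunit of epithelial cells, completes the members under the filter with 13, 0, and 0 reads against 0, 6, and 0. For none of the 4 were the groups separated by these counts.

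The 12 glycan hydrolases were centred on 0, with a median log2 fold change of -0.03, 5 members above and 7 below, and 0 at an unadjusted p under 0.05 in edgeR. *Sgsh*, the heparan sulfatase sulfamidase, had the smallest p, with 156, 109, and 133 normalised CPM in vehicle and 83.5, 35.8, and 92.2 with NJT-2. The groups did not overlap, and the log2 fold change was -0.91 ± 0.42 (SE, unadjusted p = 0.0633, adjusted p = 0.295). *Gusb*, the β-glucuronidase, had 448, 369, and 314 normalised CPM in vehicle and 279.5, 95.8, and 297 with NJT-2, a log2 fold change of -0.75 ± 0.46 (SE). In both genes NJT-2 replicate 2 was the lowest library by far, and without it the log2 fold changes were -0.59 and -0.39.

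*Man2b1*, the lysosomal α-mannosidase, separated the groups in the other direction. It had 242, 377, and 428 normalised CPM in vehicle and 537, 493, and 504 with NJT-2, a log2 fold change of 0.55 ± 0.32 (SE, adjusted p = 0.365), which was 0.30 without vehicle replicate 1 and 0.28 with the length trend out. *Neu1*, the sialidase that works in a complex with the *Ctsa* product, had 81.2, 74.7, and 75.9 normalised CPM against 103, 108, and 85.3, a log2 fold change of 0.36 ± 0.29 (SE). *Hexa*, which encodes a subunit of a hexosaminidase that degrades GM2 ganglioside, was at -0.71 ± 0.43 (SE) with overlapping groups, and was highest in vehicle replicate 1 (1056 normalised CPM against 554 and 372 in the other vehicle libraries). Without that library its log2 fold change was -0.24, and with the length trend out it was -0.22. *Hexa*, with a mean of 78.0 FPKM, and *Gaa*, the acid α-glucosidase that degrades glycogen, with 56.1 FPKM, were the most abundant of the class.

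*Gaa* and *Naglu*, an N-acetylglucosaminidase of heparan sulfate breakdown, were among the steadiest of all members. *Gaa* had 965, 801, and 884 normalised CPM in vehicle and 923, 765, and 858 with NJT-2. *Naglu* had 161, 169, and 151 in vehicle and 171, 157, and 151 with NJT-2. Their log2 fold changes were -0.06 ± 0.29 and -0.01 ± 0.27 (SE), and their 95% intervals ran from -0.73 to 0.62 and from -0.64 to 0.63. *Galns*, a sulfatase of keratan sulfate, had a log2 fold change of -0.29. *Hyal1*, a hyaluronidase whose exons overlap those of *Hyal3* and *Naa80* on the same strand, and *Arsg*, a sulfatase, were low and variable, at 0.79 ± 0.75 and 0.58 ± 0.80 (SE).

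Of the 7 genes of lipid breakdown, 4 had a log2 fold change above 0 and 3 below, with a median of 0.14, and 0 had an unadjusted p under 0.05 in edgeR. *Npc2*, the soluble protein that hands cholesterol from the lumen to the membrane protein NPC1, had the smallest p of the class (unadjusted 0.0715, adjusted 0.302). It had 8298, 4138, and 2434 normalised CPM in vehicle and 2210, 2969, and 2092 with NJT-2, a log2 fold change of -1.03 ± 0.49 (SE). Vehicle replicate 1 was the highest library, the groups overlapped, and without that library the log2 fold change was -0.48. *Galc*, the galactosylceramidase, was low, with 29.6, 19.8, and 32.5 normalised CPM in vehicle and 37.7, 45.3, and 48.5 with NJT-2. The groups did not overlap, but the log2 fold change of 0.68 ± 0.37 (SE) was 0.01 once the trend with gene length was taken out.

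*Psap*, the precursor of the saposins that present sphingolipids to their hydrolases, was the second most abundant member (562 FPKM) and one of the steadiest. It had 4739, 4961, and 4381 normalised CPM in vehicle and 5687, 4728, and 5112 with NJT-2, a log2 fold change of 0.14 ± 0.31 (SE). *Gm2a*, the activator protein for GM2 ganglioside, had 183, 189, and 167 against 164, 131, and 141, which did not overlap although the log2 fold change was only -0.30 ± 0.28 (SE). *Lipa*, the lysosomal acid lipase that hydrolyses cholesteryl esters and triglycerides, had 226, 188, and 248 normalised CPM in vehicle and 300, 236, and 283 with NJT-2. Its log2 fold change was 0.31 ± 0.29 (SE), with a 95% interval from -0.36 to 0.97. *Ppt2*, a thioesterase whose exons overlap a second gene model on the same strand, had a log2 fold change of 0.37 ± 0.30 (SE), and *Arsa*, the sulfatide sulfatase, had -0.18 ± 0.31 (SE), and both overlapped between the groups.

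The 3 genes for nucleic acids and phosphate esters did not separate the groups. *Dnase2a*, the acid DNase, had 106, 51.0, and 39.0 normalised CPM in vehicle and 41.6, 16.8, and 42.6 with NJT-2, a log2 fold change of -0.96 ± 0.53 (SE) that was -0.47 without vehicle replicate 1. *Acp5*, the tartrate-resistant phosphatase of osteoclasts and macrophages, had 12.5, 4.42, and 3.00 against 16.3, 7.38, and 7.95, a log2 fold change of 0.67 ± 0.72 (SE) that was 1.46 without vehicle replicate 1 and 0.21 without NJT-2 replicate 1. *Acp2*, the phosphatase of most cells, was at -0.02 ± 0.32 (SE).

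The membrane proteins held *Npc1*, the member with the largest log2 fold change. Of 12 genes, 6 lay above 0 and 6 below, 2 were higher and 1 was lower at an unadjusted p under 0.05 (25% against 17.8% of all genes), and 4 had an absolute log2 fold change over 1 (33.3% against 25.9% of all genes). Their median was 0.05, close to that of all genes. *Npc1* (chromosome 18, 12189692 to 12236400), the membrane protein that exports cholesterol from the lysosome, had the smallest p of all members. It had 27.4, 107, and 176 normalised CPM in vehicle and 544, 666, and 586 with NJT-2. All NJT-2 libraries lay above all vehicle libraries, and the lowest NJT-2 library was well above the highest vehicle library. In FPKM these levels were 2.97 ± 2.39 with vehicle and 17.3 ± 1.05 with NJT-2 (mean ± SD, n = 3 per group).

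The log2 fold change of *Npc1* was 2.54 ± 0.63 (SE, unadjusted p = 0.00409, adjusted p = 0.134 in edgeR), a 5.80-fold difference with a 95% interval from 2.11 to 15.9. It was thus not called, with rank 109 by p among the 3705 genes. Over all alternatives tried, the log2 fold change lay between 2.05 (without vehicle replicate 1) and 3.13 (without vehicle replicate 3), and the adjusted p lay between 3.41e-06 and 0.414. *Npc1* was called by DESeq2, with the replicate number as a block, and by voom with sample quality weights. Exons of *Rmc1* and of *Gm15956* overlap *Npc1* on the opposite strand. The partner genes of cholesterol egress therefore had values on opposite sides of 0, *Npc1* above and *Npc2* below, and neither passed the adjusted threshold of edgeR.

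*Ctns* (chromosome 11, 73183596 to 73199042), the cystine exporter cystinosin, had 28.3, 32.5, and 39.9 normalised CPM in vehicle and 53.3, 109, and 55.6 with NJT-2. The groups did not overlap, and the log2 fold change was 1.12 ± 0.40 (SE, unadjusted p = 0.0260, adjusted p = 0.236 in edgeR). NJT-2 replicate 2 was the highest library, and without it the log2 fold change was 0.70. *Cd164*, the sialomucin endolyn, with the CLEAR core in its window, had 337, 950, and 1171 normalised CPM in vehicle and 1719, 1585, and 1617 with NJT-2. The groups did not overlap, the log2 fold change was 1.0 ± 0.47 (SE, adjusted p = 0.299), and without vehicle replicate 1, its lowest library, it was 0.59.

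*Cd63* (chromosome 10, 128900989 to 128912822), the tetraspanin of late endosomes and exosomes, had 5363, 1886, and 1074 normalised CPM in vehicle and 891, 1227, and 953 with NJT-2. Vehicle replicate 1 was again far above the other libraries, and vehicle replicate 3 lay within the NJT-2 range. The log2 fold change was -1.44 ± 0.59 (SE, unadjusted p = 0.0435, adjusted p = 0.271), and without vehicle replicate 1 it was -0.57. *Laptm4a*, the most abundant of the class with a mean of 324 FPKM, had 967, 2625, and 2020 normalised CPM in vehicle and 1724, 1603, and 1780 with NJT-2. In this gene vehicle replicate 1 was the lowest library and vehicle replicate 2 the highest, and the log2 fold change was -0.14 ± 0.42 (SE).

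*Lamp2*, a main structural protein of the lysosomal membrane and a receptor of chaperone-mediated autophagy, had 919, 1748, and 2037 normalised CPM in vehicle and 2114, 1758, and 2158 with NJT-2. Its log2 fold change of 0.36 ± 0.38 (SE) was 0.04 without vehicle replicate 1. *Mcoln1*, the calcium channel mucolipin 1 with the CLEAR core in its window, was at -0.01 ± 0.31 (SE), and *Slc11a2*, an iron transporter, was at -0.07 ± 0.29 (SE). *Litaf* was at -0.06 ± 0.55 (SE), and its NJT-2 libraries lay on both sides of vehicle, with 233 and 268 normalised CPM in replicates 1 and 3 and 907 in replicate 2. *Laptm4b* was at -0.55 ± 0.33 (SE). *Entpd4b*, at 0.12 ± 0.28 (SE), has the near-identical copy *Entpd4*, and its counts are uncertain for that reason.

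**Figure D2:**
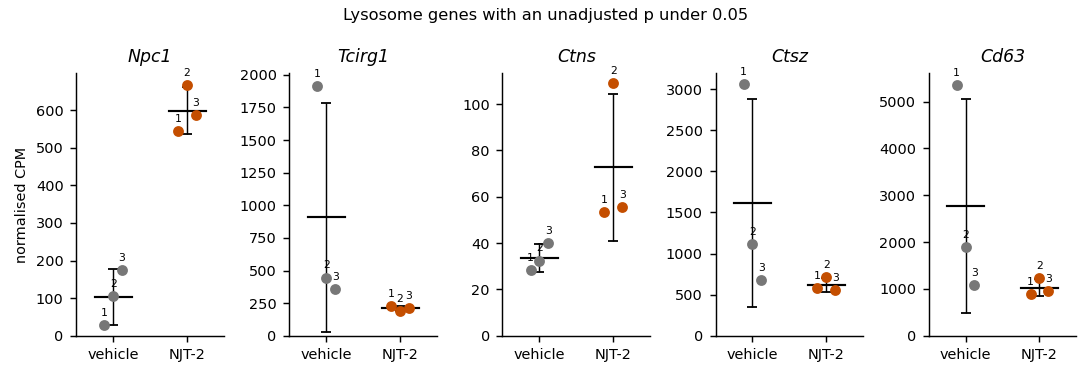
Normalised CPM of the 5 lysosome genes with an unadjusted p under 0.05, in the 3 vehicle libraries (grey) and the 3 NJT-2 libraries (orange), with replicate numbers beside the points and the mean ± SD as lines. All NJT-2 libraries lie above vehicle for *Npc1* and *Ctns*, while the means of vehicle for *Tcirg1*, *Ctsz*, and *Cd63* are drawn up by replicate 1.

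Among the 5 subunits of the proton pump, 4 had log2 fold changes within 0.1 of 0 and *Tcirg1* stood apart. *Tcirg1* (chromosome 19, 3896050 to 3907112), the a3 isoform of the membrane-bound V0 sector known from the osteoclast, had 1918, 447, and 358 normalised CPM in vehicle and 228, 187, and 212 with NJT-2. All NJT-2 libraries lay below all vehicle libraries. The log2 fold change was -2.12 ± 0.66 (SE, unadjusted p = 0.0134, adjusted p = 0.194 in edgeR), a 4.34-fold lower level. Vehicle replicate 1 carried much of this difference, and without it the log2 fold change was -0.99 with the groups still apart.

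*Atp6v0a1*, the a1 isoform of the same subunit, had 408, 249, and 239 normalised CPM in vehicle and 388, 193, and 357 with NJT-2, a log2 fold change of 0.07 ± 0.39 (SE). *Atp6v0d1*, with the CLEAR core across its RefSeq start, had 474, 344, and 251 against 338, 443, and 343, a log2 fold change of 0.07 ± 0.34 (SE). *Atp6v0c*, the proteolipid of the rotor ring, was at 0.04 ± 0.31 (SE), and *Atp6ap1*, an accessory subunit, was at 0.01 ± 0.29 (SE). The 95% intervals of these 4 genes lay within -1 and 1. Their sign was not settled, since that of *Atp6v0c* and *Atp6ap1* turned with upper-quartile scaling (-0.017 and -0.056), that of *Atp6v0a1* turned with the length trend taken out (-0.19), and that of *Atp6v0d1* turned without vehicle replicate 3 (-0.13).

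Most subunits of the catalytic V1 sector are not in the KEGG lysosome list. Of 9 other pump subunits in the table, all of V1 but *Atp6v0e* of V0, 7 were tested, with a median log2 fold change of 0.30. In edgeR 0 were called, and at an unadjusted p under 0.05, 1 was higher and 1 was lower. Over all genes 8.04% were higher and 9.72% lower at this limit. *Atp6v1b2*, the ubiquitous B subunit, had 205, 252, and 262 normalised CPM in vehicle and 521, 821, and 508 with NJT-2, a log2 fold change of 1.36 ± 0.33 (SE, unadjusted p = 0.00374, adjusted p = 0.134). All NJT-2 libraries lay above vehicle, and this was so too for *Atp6v1c1*, at 0.69 ± 0.30 (SE), and *Atp6v1d*, at 0.58 ± 0.27 (SE), so for 3 of 7 genes, where 15.1% of all genes separated upwards. *Atp6v1f* had 466, 185, and 106 normalised CPM in vehicle and 108, 105, and 107 with NJT-2. Its log2 fold change of -1.24 ± 0.53 (SE) rested on vehicle replicates 1 and 2, as vehicle replicate 3 was level with NJT-2.

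**Figure D3:**
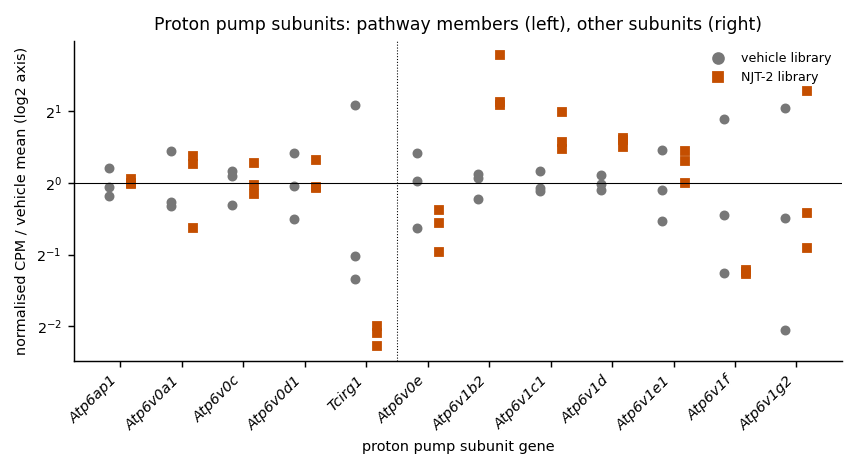
Normalised CPM of each tested proton pump subunit relative to the mean of its vehicle libraries, on a log2 axis, for vehicle (grey circles) and NJT-2 (orange squares) libraries. Left of the dotted line are the 5 members, of which *Tcirg1* alone separates the groups. On the right are 7 other subunits, of which *Atp6v1b2*, *Atp6v1c1*, and *Atp6v1d* separate them upwards.

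Sorting and transport had 10 of 14 tested genes above 0 and 4 below, with a median log2 fold change of 0.14 and 0 genes at an unadjusted p under 0.05 in edgeR. The mannose 6-phosphate receptors were both on the upper side. *Igf2r*, the cation-independent receptor with the CLEAR core at 2 places, had 103, 206, and 501 normalised CPM in vehicle and 477, 677, and 514 with NJT-2, a log2 fold change of 1.04 ± 0.56 (SE, adjusted p = 0.334 in edgeR). Vehicle replicate 3 lay within the NJT-2 range, and the log2 fold change was 1.83 without it and 0.61 without vehicle replicate 1, the lowest library. *M6pr*, the cation-dependent receptor, had 223, 415, and 396 normalised CPM in vehicle and 441, 605, and 445 with NJT-2. The groups did not overlap, with a log2 fold change of 0.53 ± 0.35 (SE) that was 0.25 without vehicle replicate 1. *Nagpa*, the enzyme that uncovers the mannose 6-phosphate tag, was at 0.18 ± 0.43 (SE).

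The adaptor complexes, which package cargo into vesicles, showed no common direction. Of the AP-3 complex, which carries membrane proteins to lysosomes, *Ap3s1* separated the groups with 140, 287, and 251 normalised CPM in vehicle and 329, 388, and 326 with NJT-2, a log2 fold change of 0.62 ± 0.35 (SE) that was 0.33 without vehicle replicate 1. *Ap3b1*, *Ap3d1*, and *Ap3m1* of the same complex were at 0.48, 0.33, and 0.06 with overlapping groups. Of the AP-1 complex of the Golgi apparatus, *Ap1s1* had 620, 344, and 233 against 229, 153, and 235 normalised CPM, a log2 fold change of -0.96 ± 0.43 (SE, unadjusted p = 0.0570, adjusted p = 0.290) that was -0.54 without vehicle replicate 1, while *Ap1m1* and *Ap1b1* were at 0.10 and 0.00. Of the AP-4 complex, *Ap4e1* was at 1.31 ± 0.94 (SE), *Ap4m1* at -0.19 ± 0.33 (SE), and *Ap4s1* at -0.96 ± 0.60 (SE). With the length trend taken out, *Ap4e1* was at 1.18 and *Ap4s1* at -0.07, and without vehicle replicate 1 they were at 0.75 and -0.40. *Ap4e1* ran from 2.42 normalised CPM in vehicle replicate 1 to 53.7 in vehicle replicate 3, a wider range within vehicle than its distance between the groups. *Gga3*, a sorting adaptor for the mannose 6-phosphate receptors, was at -0.42 ± 0.37 (SE).

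A pair of libraries stood apart from the others of their groups. Vehicle replicate 1 was the highest library in 22 of the 59 members and the lowest in 20, together 71.2%, and the same held for 70.7% of all genes. NJT-2 replicate 2 was highest in 17 and lowest in 15, together 54.2%, against 55.2% of all genes. Over all genes, the log2 ratio of vehicle replicates 1 and 2 to the NJT-2 libraries was lower for longer genes (Spearman's rho of -0.384 and -0.397 over genes, which share libraries), and that of vehicle replicate 3 was not (0.01). Within the members the range over libraries was narrow. The highest library was less than 2 times the lowest in 24 members (40.7%), against 18.7% of all genes, and the median ratio was 2.35 against 3.37.

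**Figure D4:**
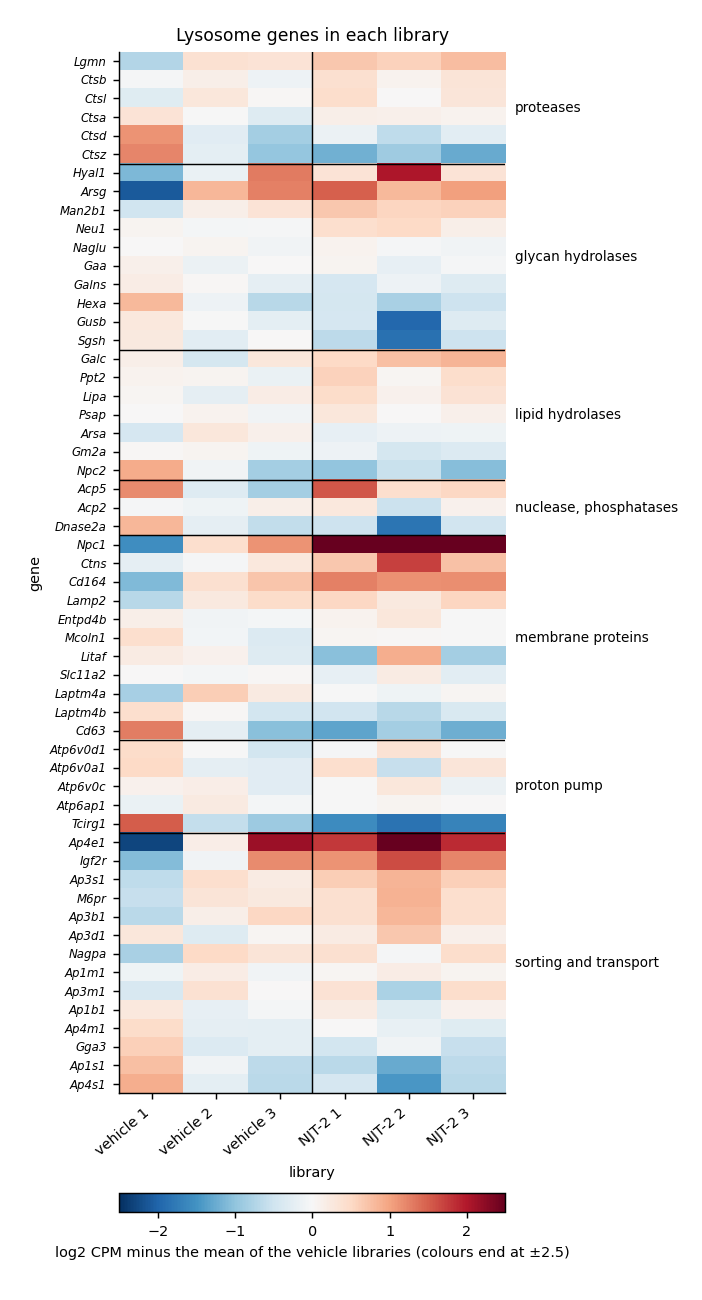
Heat map of 56 of the 59 tested lysosome genes (rows, by class) in the 6 libraries (columns). Colour is the log2 normalised CPM minus the mean of the vehicle libraries, and colours end at -2.5 and 2.5. Vehicle replicate 1 departs from the other vehicle libraries in both directions, and *Npc1* is the row with the deepest colour in all NJT-2 libraries.

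None of the tested regulators of the lysosome was called. The list held 23 genes, among them transcription factors of the TFEB family and components and inhibitors of mTORC1. This kinase complex holds these factors in the cytoplasm. Listed genes outside the table were not assessed, and 6 of the 23 were in the table and tested. In edgeR 0 of them were called, 0 had an unadjusted p under 0.05, and all overlapped between the groups, with a median log2 fold change of 0.17. *Tfeb* had 27.6, 13.1, and 10.1 normalised CPM in vehicle and 24.4, 12.5, and 22.4 with NJT-2, and *Tfe3* had 168, 165, and 161 against 157, 214, and 166. Their log2 fold changes were 0.22 ± 0.56 and 0.12 ± 0.29 (SE). The smallest p of the list belonged to *Tsc2*, an inhibitor of mTORC1 (-0.74 ± 0.46, SE), and *Zkscan3*, a repressor of lysosome genes (1.10 ± 0.70, SE).

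Of 46 autophagy genes listed, 10 were in the table and 9 were tested, with a median log2 fold change of 0.33. In edgeR 0 were called, and 1 of the 9 was higher at an unadjusted p under 0.05. This is near the background of 8.04% of all genes. All NJT-2 libraries lay above vehicle in 2 of the 9, where 15.1% of all genes separated upwards. The gene at this limit of p was *Sqstm1*, the p62 receptor that delivers ubiquitinated cargo to autophagosomes. It had 803, 975, and 840 normalised CPM in vehicle and 2154, 3508, and 2245 with NJT-2, with all NJT-2 libraries above vehicle. The log2 fold change was 1.59 ± 0.35 (SE, unadjusted p = 0.00200, adjusted p = 0.102). *Gabarap*, an Atg8-family protein of the autophagosome membrane, followed by p with -0.67 ± 0.41 (SE) and overlapping groups.

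Markers of cell state and of other cell types moved beside these values. Of 10 adipocyte markers, all tested, 6 were called higher with NJT-2, against 0.567% of all genes. The 10 markers had a median log2 fold change of 4.12. Their summed level was 82.5 to 106 FPKM in vehicle and 489 to 1720 FPKM with NJT-2. Most of the sum in vehicle was *Lpl*, at 78.8, 55.1, and 55.6 FPKM, a gene whose groups overlapped. *Adipoq* was at 0.38, 0.50, and 0.39 FPKM in vehicle. The called genes were *Adipoq* (6.62), *Cd36* (8.08), *Gpd1* (5.76), *Lipe* (4.25), *Pnpla2* (3.99), and *Plin4* (3.13, all on the log2 scale). Against this shift of adipocyte genes, the median of the lysosome genes was 0.07. Of 8 preadipocyte and fibroblast markers, 1 was called lower, *Pi16* (-3.83), against 0.135% of all genes. At an unadjusted p under 0.05 in edgeR, 4 were lower, against 9.72% of all genes. Among them was *S100a4* (-4.05, adjusted p = 0.117), with 3403, 670, and 282 normalised CPM in vehicle, highest in replicate 1. The median of the 8 was -0.88. *Gata2* (0.34) was the 1 marker above 0, and *Col1a1* (-0.21) and *Zfp521* (-0.06) lay near 0. The mural marker *Myh11* was at -1.04 (adjusted p = 0.272), and of the endothelial markers *Tek* was at 0.77 and *Pecam1* at -0.34, neither called.

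Macrophages are rich in lysosomes, and 1 of their markers was called higher with NJT-2. Of 10 markers in the table, 6 were tested, and their log2 fold changes had a median of 2.39 and lay between 0.03 and 3.63. Of these, 4 did not overlap between the groups, all of them higher with NJT-2, where 15.1% of all genes separated upwards. At an unadjusted p under 0.05 in edgeR, 5 were higher, against 8.04% of all genes. The called gene was *Adgre1*, which encodes F4/80 (3.23 ± 0.49, SE, adjusted p = 0.0408). *Adgre1* had 13.5, 17.4, and 20.5 normalised CPM in vehicle and 222, 73.5, and 188 with NJT-2. *Cd68*, a lysosomal membrane protein, was at 1.79 ± 0.35 (SE, adjusted p = 0.0820), while *Csf1r*, the receptor that macrophages depend on, was at 0.03 ± 0.41 (SE). The other tested markers, *Fcgr1*, *Spi1*, and *Mertk*, were at 3.63 ± 1.38, 2.57 ± 0.87, and 2.22 ± 0.70 (SE), none of them called. Under the filter, *Trem2* had 0.64, 0.31, and 0.36 FPKM in vehicle and 0.57, 0.16, and 0.28 FPKM with NJT-2. *Msr1*, *Aif1*, and *Cd163*, also under the filter, had means of 0.04, 0.10, and 0.003 FPKM in vehicle and 0.90, 0.37, and 0.06 FPKM with NJT-2. The summed level of the 10 markers was 10.8, 13.8, and 11.7 FPKM in vehicle and 67.0, 33.7, and 50.1 FPKM with NJT-2, which did not overlap. At 0 reads were 3 of the 10 markers in vehicle replicate 1, 1 in vehicle replicate 2, and 0 in the other libraries. The part of macrophage, adipocyte, and precursor RNA in the values of *Npc1*, *Ctns*, and *Tcirg1* was not tested. Of 6 lymphocyte markers none passed the filter, with sums of 0.00 to 0.14 FPKM in vehicle and 0.24 to 0.71 FPKM with NJT-2.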

How the data were processed

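RNA of 6 libraries, 3 per group by the labels, was sequenced with a kit that marks strand. Per the labels, the submitters' processing notes name cutadapt 1.9, HISAT2 2.2.1, StringTie 2.1.6, DESeq2, and edgeR, with the genome GRCm38. How reads were counted, with which annotation release, and whether by strand is not given in the sources used here. The authors deposited 1 table with unnormalised read counts per gene and FPKM values, which the authors normalised to gene length and library size. Its columns of the authors' own comparison (fold changes and p-values) were not used. Of its rows, 1 was incomplete and was left out. Counts on the 4864 rows summed to 16093037 to 28929673 per library, and the common biological coefficient of variation was 0.504.

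Genes reaching a mean FPKM of 0.5 had their counts tested in R 4.3.3 with edgeR 4.0.16 (quasi-likelihood test, TMM factors on the analysed rows, Benjamini-Hochberg adjustment over all tested genes). A gene was called with an adjusted p below 0.05 together with an absolute log2 fold change above 1. The script was tested on simulated data. Alternatives were DESeq2 1.42.0, other scalings and filters, a replicate block, a length trend (lengths implied by counts and FPKM), limma 3.58.1 with voom weights or on log2(FPKM + 1), and leaving out each library. Levels are compared between genes in FPKM and between libraries in CPM. Sums over markers, markers under the filter, and the mean ± SD of *Npc1* are the exception and are given for the groups in FPKM. Same-numbered libraries did not deviate together (correlations of 0.18, 0.03, and -0.21), so the numbers were not taken as pairs.

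In each class the genes named by rule were called members, the 4 with the smallest p, and the 2 with the highest mean FPKM, and in the other lists called genes and the 2 with the smallest p. Other members are named with their values in passing, after these were seen, as were *Atp6v1c1*, *Atp6v1d*, *Tfeb*, *Tfe3*, and *Csf1r*. The same holds for *Fcgr1*, *Spi1*, *Mertk*, *Trem2*, *Msr1*, *Aif1*, *Cd163*, *Lpl*, *Gata2*, *Col1a1*, and *Zfp521*. The members and the lists (regulators, autophagy genes, pump subunits, and adipocyte, precursor, macrophage, lymphocyte, endothelial, and mural markers) were chosen with earlier results of these data known. The values of 3 members are not reported here, and these are not drawn in the plots. Promoter windows came from RefSeq, and overlaps of exons from GENCODE M21.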

Additional observations from a re-analysis of the deposited data

How the results depend on the processing

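The counts of called lysosome genes depended on the test. With NJT-2, 0 were called higher in edgeR, 1 with DESeq2, 1 with the replicate block, and 5 with voom and sample quality weights (*Npc1*, *Galc*, *Acp5*, *Igf2r*, and *Ap4e1*). Lower were 0 in edgeR, 1 with DESeq2, and 1 with voom, *Tcirg1* in both. Over all genes these fits called 26, 289, 57, and 727 genes. The block changed no other call on a lysosome gene, and leaving out a library gave 0 calls among them each time, with 0 (without vehicle replicate 2) to 75 calls over all genes. At an unadjusted p under 0.05 there were 5 of the 59 members in edgeR, 8 with DESeq2, 30 with voom, and 3 with limma on FPKM. Over all genes, 17.8%, 22.6%, 60.7%, and 14.8% were at this limit in these fits. On leaving out a library the lowest number of members was 2, without NJT-2 replicate 2 (18.9% of all genes). The highest was 12, when vehicle replicate 3 was left out (28.3% of all genes). The median log2 fold change was 0.22 with limma on FPKM, where that of all genes was 0.14, and on leaving out a library it lay between -0.037, without vehicle replicate 3, and 0.13, without vehicle replicate 2. The cause of these differences was not tested.

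Signs turned under an alternative for 24 of the 59 members, 8 of them among the 31 genes named by rule. *Gaa* was at 0.11 with voom, 0.12 with limma on FPKM, and -0.12 to 0.012 on leaving out a library. *Laptm4a* was at 0.21 with the length trend out, 0.16 with limma on FPKM, and -0.49 to 0.19. *Acp2* was at 0.25 with voom, 0.11 with limma on FPKM, and -0.18 to 0.18. *Ctsd* was at 0.056 with voom and -0.94 to 0.15. *Atp6v0d1* ran from -0.13 to 0.30 and *Atp6v0a1* from -0.12 to 0.32, with -0.19 once the length trend was out. *Atp6v0c* was at -0.017 with upper-quartile scaling, -0.22 with voom, and -0.10 to 0.13. *Atp6ap1* was at -0.056 with upper-quartile scaling, -0.037 without a filter, -0.18 with voom, and -0.12 to 0.13. Of the values recomputed for these 31 genes, 427 kept direction and side of the threshold, 29 turned sign, and 8 passed the threshold where edgeR did not. Depth was not varied.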
